A study of Homo sapiens and Mus musculus with 4 samples.

Results

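The genes described here are suppressors of cytokine signaling, without SOCS7, and the PIM kinases: CISH, SOCS1, SOCS2, SOCS3, SOCS4, SOCS5, SOCS6, PIM1, PIM2 and PIM3. They were chosen by name, with earlier results of these data known. The 10 human genes and the 10 mouse genes of the same symbols were taken. These 20 genes are part of a table of 60736 genes, 32738 human and 27998 mouse. Bulk sequencing of messenger RNA covered 4 established lymphoid cell lines, with 1 library per line and no treatment or engineered allele named in the labels. Jurkat and TALL104 are human T-cell leukemia lines, described by the study as CD4 and CD8 T cells. The mouse lines are EL4, derived from a T-cell lymphoma, and IVA12, a hybridoma of the B lineage. Per the study's methods, each line grew in its own medium, and interleukin-2 is named in the medium of TALL104 alone, so the line and its medium cannot be told apart. Each group is 1 culture of 1 line, so there is no spread between cultures, no test was made, and a difference is given by its size with an interval for the counting of reads.

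Cytokine receptors of lymphocytes carry JAK kinases, which phosphorylate STAT transcription factors, and the STATs switch on target genes in the nucleus. CISH and the SOCS genes are among those targets, and their proteins feed back on the same receptors: an SH2 domain binds phosphotyrosine and a SOCS box recruits an elongin and cullin ubiquitin ligase. CISH and SOCS1 to SOCS3 are the members best known as cytokine-induced feedback genes, whereas SOCS4 to SOCS6 have longer amino-terminal regions and are less tied to cytokine induction. The PIM genes encode serine/threonine kinases that need no activating phosphorylation, so their activity largely follows the amount of protein, and they promote survival and growth of lymphoid cells. PIM1 was first found as a site of retroviral insertion in mouse T-cell lymphomas.

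Values are FPKM, which divide fragment counts by the length of the gene and the size of the library, so members can be set side by side within a library. The library totals that divide the FPKM ran from 25286728 (IVA12) to 34783047 (Jurkat), recovered from the steps between FPKM values. They are not sequencing depths, and which reads they count is not stated. Intervals are 95% intervals of the recovered reads and cover counting error only. The labels were checked against marker genes. All 3 CD3 chains were at 61.3 FPKM or above in Jurkat, TALL104 and EL4, and the highest of them in IVA12 was 1.15 FPKM. Of the B-lineage markers, Cd79b, Ms4a1 and Jchain passed 1 FPKM in IVA12, and Cd79a was at 0.0543 FPKM there. CD79A passed 1 FPKM in both human T-cell lines, at 16.5 in Jurkat and 24.6 in TALL104, and CD79B was at 4.80 FPKM in TALL104. The summed level of the myeloid markers was at most 1.65 FPKM and that of the erythroid markers at most 0.0430 FPKM in any line.

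Reads had been aligned to both genomes at once, so the members of the other species give a background. Of 40 such values (20 genes, each in the 2 libraries of the other species), 25 were at 0 and 13 rested on 1 to 3 reads. The highest was 0.115 FPKM.

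Between the human lines, 6 of the 10 members were more than 1.5-fold higher in TALL104 and 3 were higher in Jurkat, on the scale of FPKM + 1. Over all human genes these shares were 11.4% and 13.8% (25.3% in either direction), and over the 12214 genes with at least 1 FPKM in either line they were 28.4% and 34.2% (62.6% in either direction). All 10 human members passed that minimum. Their median log2((FPKM + 1) ratio) of Jurkat over TALL104 was -1.14, against 0.10 over the genes that passed the minimum. Between the mouse lines, 3 members were higher in EL4 and 4 in IVA12, with 9.75% and 11.2% over all mouse genes (21% in either direction) and 23.8% and 26.5% over the 10801 genes that passed the minimum (50.3% in either direction). The mouse median of EL4 over IVA12 was -0.48 over all 10 members, against -0.04 over those genes. Of the 10 mouse members, 9 passed the minimum, all but Cish, and the median of these 9 was -0.55. With a pseudocount of 0.1 or 0.01 in place of 1, the mouse count higher in IVA12 was 6 and that in EL4 stayed at 3. Genes with at least 1 FPKM in both human lines had a median log2 ratio of 0.11, the shift against which human ratios are to be read. Since the members were chosen with earlier results of these data known, setting them beside all genes is a description, not a test.

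**Figure D1:**
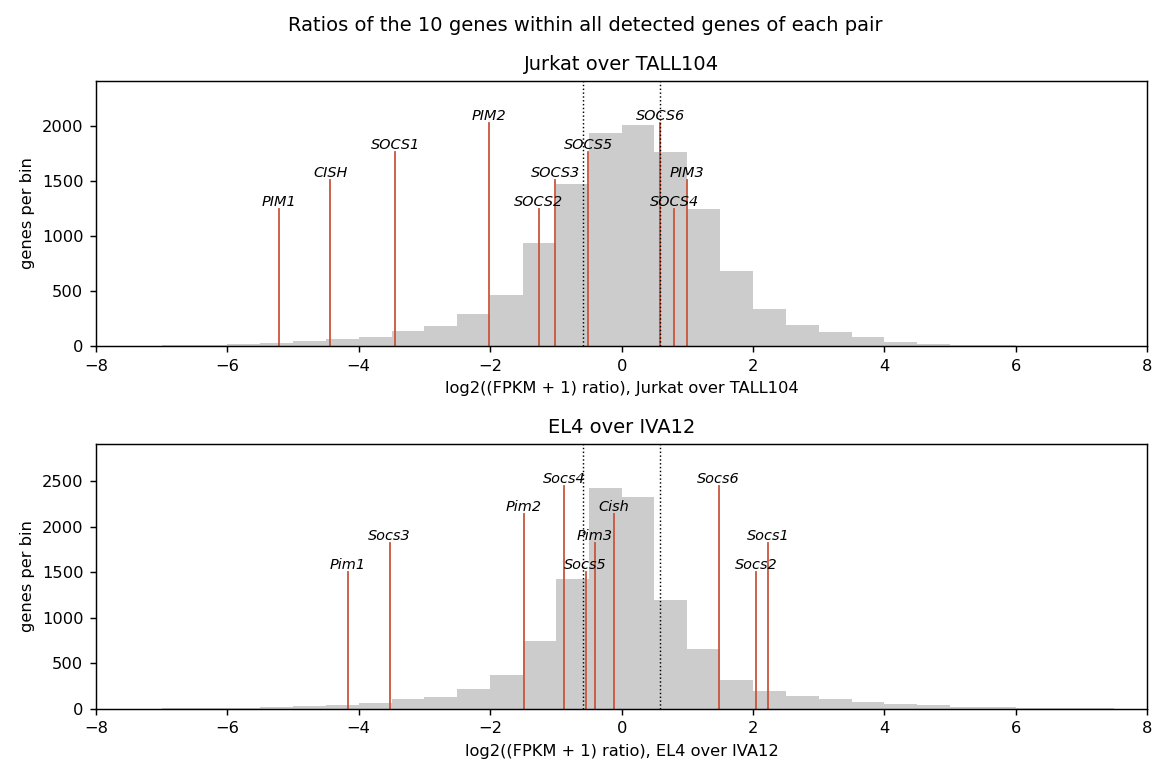
Distribution of log2((FPKM + 1) ratio) over all genes with at least 1 FPKM in either line (grey bars, genes per bin of 0.5), for Jurkat over TALL104 (top) and EL4 over IVA12 (bottom), with a red line at each of the 10 genes and dotted lines at 1.5-fold. PIM1, CISH and SOCS1 lie in the left tail in the human pair, at -5.21, -4.44 and -3.44. Pim1 and Socs3 lie there in the mouse pair, at -4.17 and -3.53.

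CISH (ENSG00000114737, hg19 chromosome 3, 50643920 to 50649205, protein-coding), which encodes a SOCS-box protein that binds the activated interleukin-2 receptor, had 0.675 FPKM in Jurkat (interval 0.482 to 0.919) and 35.3 FPKM in TALL104 (33.6 to 37). TALL104 was the higher, by an FPKM ratio of 52.2 (38.2 to 73.4), and the intervals do not overlap. Of the 12214 genes that passed the minimum, 128 had a log2 ratio further toward TALL104. In the mouse lines, Cish (ENSMUSG00000032578, mm10 chromosome 9, 107296026 to 107302784) was at 0.0436 FPKM in EL4 (0.0199 to 0.0828) and 0.136 FPKM in IVA12 (0.0849 to 0.205), below 1 FPKM in both, so TALL104 was the 1 line of the 4 in which this gene passed 1 FPKM. CISH and MAPKAPK3 overlap by 255 bases on opposite strands. The level of MAPKAPK3 was 31.1 FPKM in Jurkat and 26.4 FPKM in TALL104, and whether the authors counted by strand is not stated.

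The stretch before the start of human CISH is shown with those of SOCS1 and PIM1, since these are the 3 human members with the highest ratios toward TALL104. Each runs over 150 bases from a point 250 bases before the RefSeq gene start and was placed on GRCh37 by exact match, at chr3:50649306-50649455 (minus strand) for CISH, chr16:11350162-11350311 (minus strand) for SOCS1 and chr6:37137678-37137827 (plus strand) for PIM1. Capitals mark the letters TTCNNNGAA, the GAS element that STAT dimers are known to bind, which reads the same on both strands.
CISH: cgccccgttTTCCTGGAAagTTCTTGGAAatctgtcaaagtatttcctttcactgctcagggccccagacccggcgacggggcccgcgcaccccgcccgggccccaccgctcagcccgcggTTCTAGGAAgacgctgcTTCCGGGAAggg
SOCS1: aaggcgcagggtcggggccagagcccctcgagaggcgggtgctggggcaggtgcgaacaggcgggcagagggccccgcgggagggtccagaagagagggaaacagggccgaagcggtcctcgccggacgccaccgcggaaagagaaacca
PIM1: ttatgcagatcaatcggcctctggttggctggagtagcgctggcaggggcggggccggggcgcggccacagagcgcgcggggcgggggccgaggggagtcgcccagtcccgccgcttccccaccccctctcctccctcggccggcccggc

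CISH held 4 of these elements in 2 pairs. The first pair begins 241 and 230 bases before the start with 2 bases between its elements, and the second begins 129 and 112 bases before the start with 8 bases between. The stretches of SOCS1 and PIM1 held 0. Over RefSeq windows of 250 bases before to 50 bases after the start (GRCh38.p14), 7.66% of 35116 windows held at least 1 element and 7 windows (0.0199%) held 4 or more. Of the 10 human members, 8 had such a window, and CISH was the 1 member whose window held the element. SOCS2 and SOCS5 had no entry. These are matches of letters in a short window, not measured binding.

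SOCS1, whose protein inhibits JAK kinases directly and which acts as a brake on interferon and common gamma-chain cytokine signals, had 0.258 FPKM in Jurkat (0.129 to 0.462) and 12.7 FPKM in TALL104 (11.5 to 13.9). TALL104 was the higher by a ratio of 49.2 (27.2 to 99.3). RMI2, which spans SOCS1 (ENSG00000185338, hg19 chromosome 16, 11348274 to 11350061) on the opposite strand, went the other way, with 4.61 FPKM in Jurkat and 1.45 in TALL104. Mouse Socs1 (ENSMUSG00000038037) had 5.99 FPKM in EL4 (4.4 to 7.97) and 0.486 FPKM in IVA12 (0.10 to 1.42). EL4 was the higher by a ratio of 12.3 (3.97 to 61.9), and the wide interval rests on 47 and 3 recovered reads. The gene length recovered for Socs1 was 244 bases, against 2908 bases of annotated exon, so its reads may share a factor that was missed and its interval may be too wide.

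SOCS2, best known for damping growth hormone signals and present in lymphocytes as a STAT5 target, had 1.12 FPKM in Jurkat (0.985 to 1.26) and 4.08 FPKM in TALL104 (3.80 to 4.37), a ratio of 3.65 toward TALL104 (3.17 to 4.22). Mouse Socs2 had 6.50 FPKM in EL4 (6.22 to 6.79) and 0.813 FPKM in IVA12 (0.703 to 0.935), a ratio of 7.99 toward EL4 (6.90 to 9.30). In EL4 the Socs1 and Socs2 intervals overlap, and both genes stood above Cish and Socs3. Exact copies in another mouse gene, Gm9847, covered 2.27% of the read-length windows of Socs2.

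SOCS3, which binds the gp130 chain of the interleukin-6 receptor and is a classical STAT3 target, had 0.590 FPKM in Jurkat (0.446 to 0.766) and 2.20 FPKM in TALL104 (1.88 to 2.55), a ratio of 3.73 (2.74 to 5.13). The mouse gene showed the largest difference of any CISH or SOCS gene in the mouse pair. Socs3 (ENSMUSG00000053113, mm10 chromosome 11, 117966079 to 117970047) was at 0.161 FPKM in EL4 (0.0903 to 0.266) and 12.4 FPKM in IVA12 (11.6 to 13.2), and IVA12 was the higher by a ratio of 76.9 (46.4 to 138). Of 10801 genes, 190 had a log2 ratio further toward IVA12. The group of Cish and Socs1 to Socs3 therefore differed in composition between the mouse lines: EL4 held Socs1 and Socs2, and IVA12 held Socs3. Induction was not measured. Summed over CISH and SOCS1 to SOCS3, the human levels were 2.64 FPKM (Jurkat) and 54.2 FPKM (TALL104) and the mouse levels 12.7 FPKM (EL4) and 13.8 FPKM (IVA12), so the mouse sums differed by a ratio of 1.09 although 3 of the 4 genes were past 1.5-fold.

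**Figure D2:**
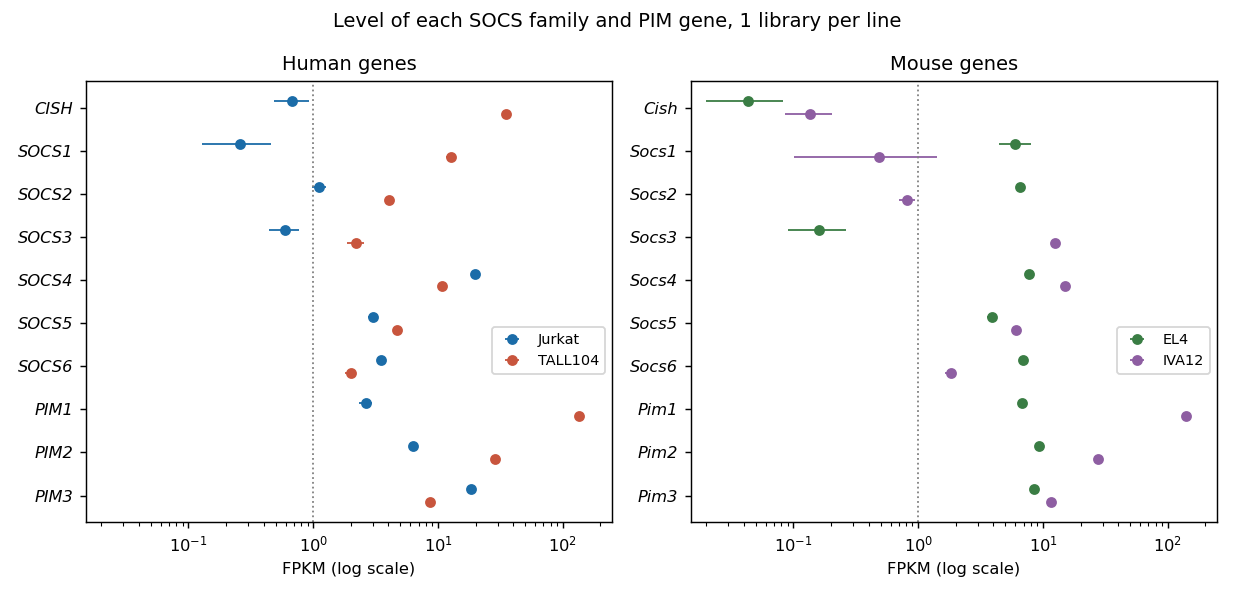
FPKM (log scale) of each human member in Jurkat and TALL104 (left) and of each mouse member in EL4 and IVA12 (right). Points are single libraries, bars are 95% counting intervals and the dotted line marks 1 FPKM. The widest gaps are those of PIM1 (2.64 and 134), CISH (0.675 and 35.3) and SOCS1 (0.258 and 12.7) in the human lines and of Socs3 (0.161 and 12.4) and Pim1 (6.80 and 139) in the mouse lines.

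SOCS4, SOCS5 and SOCS6 passed 1 FPKM in all 4 lines, and their largest FPKM ratio within a pair was 3.76, that of mouse Socs6. SOCS4, linked to epidermal growth factor receptor turnover, had 19.7 FPKM in Jurkat (19.1 to 20.2) and 10.9 FPKM in TALL104 (10.4 to 11.3), a ratio of 1.81 toward Jurkat (1.72 to 1.90). Socs4 was at 7.67 FPKM in EL4 and at 14.9 FPKM in IVA12, a ratio of 1.95 toward IVA12 (1.83 to 2.07). SOCS6 had 3.50 FPKM in Jurkat (3.25 to 3.77) and 1.99 FPKM in TALL104 (1.79 to 2.22), a ratio of 1.76 toward Jurkat (1.54 to 2.01). Socs6 had 6.85 FPKM in EL4 (6.54 to 7.18) and 1.82 FPKM in IVA12 (1.64 to 2.02), a ratio of 3.76 toward EL4 (3.36 to 4.21). Exact copies in the mouse gene Gm9449 covered 4.31% of the read-length windows of Socs6.

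SOCS5, reported to restrain interleukin-4 receptor signals, had the smallest range of the 10 genes over the 4 lines, with a ratio of 2.04 between the highest and the lowest FPKM. Jurkat held 3.0 FPKM (2.75 to 3.27), TALL104 held 4.69 (4.34 to 5.06), EL4 held 3.88 (3.56 to 4.22) and IVA12 held 6.12 (5.67 to 6.6). Neither pair passed 1.5-fold on the FPKM + 1 scale, with log2 ratios of -0.51 and -0.55. With a pseudocount of 0.1 both passed it, at -0.63 and -0.64. Of the read-length windows of human SOCS5, 1.04% were shared exactly with LINC01118 or SOCS5P3. LINC01118 is annotated over SOCS5 on the same strand, so windows shared with it may be the same place in the genome. It was at 0 FPKM in Jurkat and 0.0156 in TALL104. The human calls of SOCS5 and SOCS6 turned with the scaling of the libraries: scaled by the median ratio, SOCS5 was past 1.5-fold toward TALL104 at -0.60, and SOCS6 moved from 0.59 to 0.51, below 1.5-fold.

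On the log2(FPKM + 1) scale PIM1 had the widest range of the 10 genes over the 4 lines, at 5.27, followed by CISH at 5.12. On plain FPKM the highest line stood above the lowest by a ratio of 808 for CISH, 76.9 for SOCS3 and 52.8 for PIM1, and the CISH and SOCS3 ratios rest on lowest values under 1 FPKM. PIM1 (ENSG00000137193, hg19 chromosome 6, 37137928 to 37143204) was higher in TALL104 than in Jurkat by an FPKM ratio of 50.7 (45.0 to 57.4), with 62 of 12214 genes further toward TALL104. Pim1 (ENSMUSG00000024014, mm10 chromosome 17, 29490753 to 29496112) was higher in IVA12 than in EL4 by a ratio of 20.5 (18.8 to 22.3), with 115 of 10801 genes further toward IVA12. The gene Gm26885 overlaps the start of Pim1 on the other strand and was at 0.0184 FPKM in EL4 and 0.187 in IVA12.

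PIM2, the paralog with the closest link to cytokine-driven survival of lymphocytes and plasma cells, followed the same direction with smaller steps. It had 6.36 FPKM in Jurkat (5.87 to 6.89) and 28.7 FPKM in TALL104 (27.6 to 29.9), a ratio of 4.52 (4.13 to 4.95). Pim2 was at 9.24 FPKM in EL4 (8.62 to 9.89) and at 27.8 FPKM in IVA12 (26.6 to 29.1), a ratio of 3.01 (2.77 to 3.27).

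PIM3 did not follow them. Its level was 18.2 FPKM in Jurkat (17.3 to 19.1) and 8.67 FPKM in TALL104 (8.0 to 9.39), a ratio of 2.10 toward Jurkat (1.91 to 2.31). Pim3 had 8.50 FPKM in EL4 (7.86 to 9.17) and 11.6 FPKM in IVA12 (10.8 to 12.5), a ratio of 1.37 toward IVA12 (1.23 to 1.52) that was under 1.5-fold. No window of read length was shared exactly between any PIM gene and another gene of the annotation used, in either species, so a read that matched 1 PIM gene exactly over its length had no exact match in another gene.

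The makeup of each family differed between lines. SOCS7 was not among the members and is left out of the sums. Mouse Socs7 had 12.3 FPKM in EL4 and 13.2 in IVA12, so the mouse shares would be smaller with it. No human entry of that symbol was found. Symbols were matched for 31182 of 32738 human entries, so how the human shares would change with SOCS7 is unknown. SOCS4 held 68.2% of the summed CISH and SOCS FPKM in Jurkat (66.9% to 69.6%), and CISH held 2.34%. In TALL104, CISH held 49.1% (47.6% to 50.7%), SOCS1 17.7% and SOCS4 15.1%. Over these 7 genes EL4 was the most even line, with Socs4 at 24.7%, Socs6 at 22%, Socs2 at 20.9% and Socs1 at 19.3%. IVA12 was split between Socs4 at 40.7% (39.1% to 42.2%) and Socs3 at 33.8% (32.1% to 35.5%). The summed level of the 7 genes was 71.8 FPKM in TALL104, the highest, against 36.7 in IVA12, 31.1 in EL4 and 28.8 in Jurkat.

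Among the kinases, PIM1 held 78.1% of the summed PIM FPKM in TALL104 (77.4% to 78.8%) and 77.9% in IVA12 (77.2% to 78.7%), intervals that overlap. In Jurkat PIM3 held 66.9% (65.1% to 68.8%) and PIM1 9.68%, whereas in EL4 the shares were 27.7% for Pim1, 37.6% for Pim2 and 34.6% for Pim3. The summed PIM level was 27.2 FPKM in Jurkat and 24.5 in EL4, against 171 in TALL104 and 179 in IVA12. Set against the summed CISH and SOCS level of the same library (without SOCS7), it was 0.945 in Jurkat, 0.789 in EL4, 2.38 in TALL104 and 4.87 in IVA12.

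**Figure D3:**
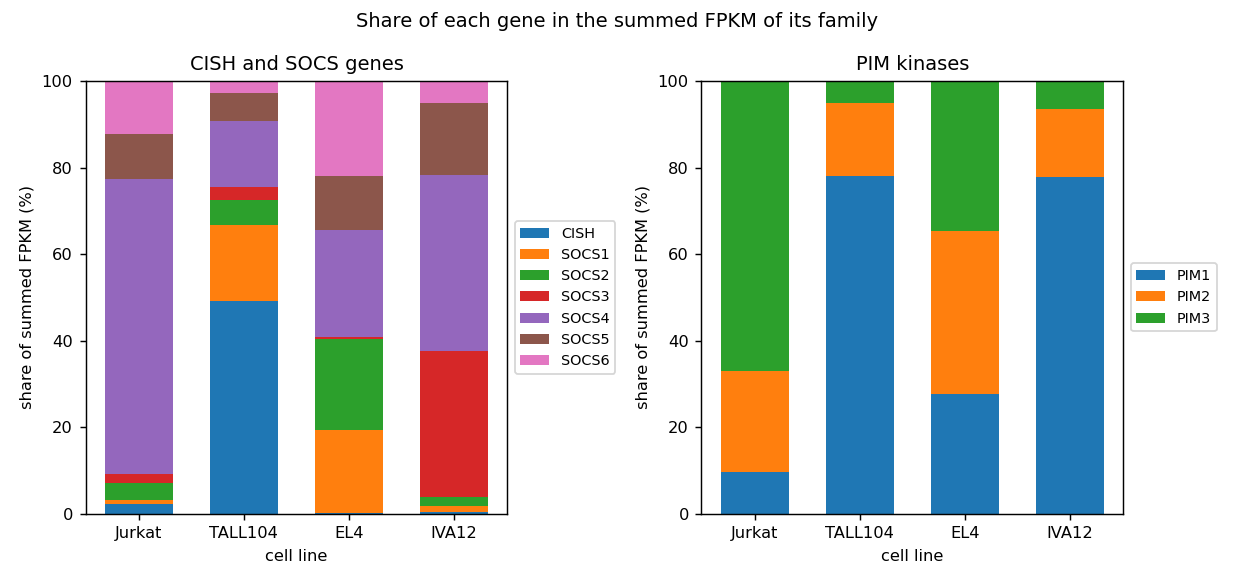
Share of each gene in the summed FPKM of the CISH and SOCS genes (left, without SOCS7) and of the PIM kinases (right), 1 stacked bar per line, with mouse genes under their human symbols. CISH takes 49.1% of its family in TALL104 and 0.14% in EL4, and PIM1 takes 78.1% in TALL104 and 77.9% in IVA12, against 9.68% in Jurkat.

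Over all 4 lines, levels were ordered by the deposited FPKM, with human and mouse values set side by side although gene models differ between the species. CISH ran from TALL104 through Jurkat and IVA12 to EL4, with no overlap between neighbors. For SOCS1 the order was TALL104, EL4, IVA12 and Jurkat, and the intervals of the last pair overlap. SOCS2 was highest in EL4, followed by TALL104, Jurkat and IVA12. SOCS3 was highest in IVA12, followed by TALL104, Jurkat and EL4. SOCS4 and PIM3 shared the order Jurkat, IVA12, TALL104 and EL4, with TALL104 and EL4 overlapping for PIM3. The order for SOCS6 was EL4, Jurkat, TALL104 and IVA12, with the last pair overlapping. SOCS5, PIM1 and PIM2 had IVA12 and TALL104 above EL4 and Jurkat. For PIM2 the intervals of TALL104 and IVA12 overlap. When FPKM were rescaled to the same own-species total in every library, as TPM are, the order of these lines turned for PIM1, with 530 in TALL104 and 431 in IVA12, and the order of the other 9 genes was the same. Which neighbors overlap depended on the scale. After rescaling, TALL104 and IVA12 no longer overlapped for PIM2 (114 and 86.1) or SOCS6 (7.89 and 5.64), nor did TALL104 and EL4 for PIM3 (34.4 and 26.4). IVA12 and TALL104 overlapped instead for SOCS4, SOCS5 and PIM3, as did EL4 and Jurkat for SOCS5 and PIM2. The overlap of IVA12 and Jurkat for SOCS1 held on both scales.

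The genes with the most similar levels over the 4 lines were taken as the nearest by Euclidean distance of log2(FPKM + 1), over 15550 symbols shared by both species, for the 3 members with the widest range on that scale. Nearest to PIM1 was BTG2, at a distance of 2.04, with 405 FPKM in IVA12, 77.9 in TALL104, 14.9 in EL4 and 3.84 in Jurkat. CD44 and TPP1 followed at 2.60 and 3.05. Nearest to CISH were CD8A at 0.37, AHRR at 0.38 and TNFAIP8L2 at 0.39, which were likewise high in TALL104 and at or near 0 in the mouse lines. For SOCS3 they were ADM2 at 0.66, BCL3 at 0.68 and SYNE4 at 0.68. With 4 libraries this is a description of levels.

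The rest of the pathway was read through 7 gene lists, each given by its count of genes past 1.5-fold. The lists were chosen with earlier results of these data known. They are not fully separate: IL2RA is among both the common gamma-chain receptors and the STAT5 targets, and MYC among both the STAT5 targets and the PIM substrates. Over genes with at least 1 FPKM in either line, shares were 28.4% toward TALL104, 34.2% toward Jurkat, 23.8% toward EL4 and 26.5% toward IVA12. List counts also take in genes below that minimum. It was passed by 5 of 7 common gamma-chain receptor genes, 8 of 11 other receptor genes and 7 of 10 STAT5 targets of the mouse. In the human pair, 6 of 8 common gamma-chain receptor genes were higher in TALL104 and 1 in Jurkat. IL2RB, the signaling beta chain of the interleukin-2 receptor, had 0.911 FPKM in Jurkat and 104 in TALL104. IL2RA, the high-affinity alpha chain, had 0.0815 and 22.6 FPKM, and IL2RG, the common gamma chain, had 106 and 203 FPKM. In the mouse pair 6 of 7 genes of this list were higher in EL4 and 0 in IVA12. Members past 1.5-fold went both ways in that pair: Socs1, Socs2 and Socs6 toward EL4, and Socs3, Socs4, Pim1 and Pim2 toward IVA12. Il7r had 42.0 FPKM in EL4 and 0.0123 in IVA12, Il9r had 19.0 and 0.0320, and Il2rg had 26.0 and 5.60. Il2rb was below 1 FPKM in both mouse lines, at 0.402 and 0.0852, and Il2ra was at 0.779 FPKM in EL4 with a listed value of 0 in IVA12.

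Among other cytokine receptors, 7 of 12 human genes were higher in TALL104 and 1 in Jurkat (28.4% and 34.2% over genes that passed the minimum). Of the mouse genes, 3 of 11 were higher in EL4 and 1 in IVA12 (23.8% and 26.5%). IL12RB2, a receptor chain for interleukin-12, had 0.0408 FPKM in Jurkat and 114 in TALL104, and IL10RA had 0.624 and 69.8. The single mouse gene of this list higher in IVA12 was Csf2rb, the beta chain shared by the interleukin-3, interleukin-5 and GM-CSF receptors, at 0.209 FPKM in EL4 and 26.3 in IVA12. Ifngr1 had 78.9 and 7.49.

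Of 11 genes for JAK kinases and STAT factors, 9 were higher in TALL104 and 0 in Jurkat (28.4% and 34.2% over genes that passed the minimum). STAT4 had 2.45 FPKM in Jurkat and 66.6 in TALL104, and JAK3, the kinase bound to the common gamma chain, had 4.34 and 56.4. The exceptions were STAT5A, at 11.1 and 13.6 FPKM, and STAT5B, at 23.6 and 20.6 FPKM, both under 1.5-fold. Phosphorylation of STAT proteins was not measured, and a link between these levels and CISH was not tested. STAT5A and STAT5B are close paralogs whose reads may be divided between them. In the mouse lines, 5 of the 11 were higher in EL4 and 3 in IVA12 (23.8% and 26.5%). Jak1 had 38.5 FPKM in EL4 and 8.33 in IVA12, Stat5a had 9.86 and 2.0, Stat5b had 15.8 and 9.67, and Jak3 had 9.61 and 18.0.

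Among other brakes on the pathway, 4 of 12 human genes were higher in TALL104 and 2 in Jurkat (28.4% and 34.2% over genes that passed the minimum). The first were led by the ubiquitin ligase gene CBLB at 1.71 and 20.9 FPKM, the second by PIAS2 at 5.34 and 0.936. In the mouse pair 3 of 13 were higher in EL4 and 2 in IVA12 (23.8% and 26.5%). The phosphatase genes Ptpn6 and Ptprc had 266 and 49.1 FPKM in EL4 against 6.31 and 2.19 in IVA12. The list of SOCS-box ubiquitin ligase partners held CUL5, RNF7, ELOB, ELOC, CUL2 and RBX1, and which cullin a SOCS box recruits was not tested. In each pair 5 of these 6 genes were under 1.5-fold. Over genes that passed the minimum, 62.6% of human and 50.3% of mouse genes were past it. The human log2 ratios of the list ran from 0.29 to 1.45, all toward Jurkat. The exceptions were ELOC, at 17.4 FPKM in Jurkat and 5.72 in TALL104, and Rnf7, at 30.4 in EL4 and 58.0 in IVA12.

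STAT5 target genes outside the family had 7 of 10 members higher in TALL104 and 1 in Jurkat (28.4% and 34.2% over genes that passed the minimum). CCND2, encoding cyclin D2, was at 0.675 FPKM in Jurkat and at 35.1 in TALL104. Of the mouse genes, 6 of 10 were higher in IVA12 and 3 in EL4 (26.5% and 23.8%). The survival gene Mcl1 had 59.3 FPKM in EL4 and 303 in IVA12, and Bcl2 had 17.6 and 0.566. Of the PIM kinase substrates, 3 of 11 were higher in TALL104 and 4 in Jurkat, near the shares of 28.4% and 34.2%. In the mouse pair 2 of 11 were higher in IVA12 and 1 in EL4, beside 26.5% and 23.8%. The phosphatase gene CDC25A had 35.2 FPKM in Jurkat and 1.02 in TALL104, and CDKN1A, encoding the cell cycle inhibitor p21, had 0.356 and 13.8. Myc, whose product cooperates with PIM kinases in lymphoma, had 51.9 FPKM in EL4 and 194.7 in IVA12. The human gene MYC, named after its value was seen, had 96.8 FPKM in Jurkat and 20.4 in TALL104, so the line with the higher PIM1 had the lower MYC among the human lines and the higher Myc among the mouse lines. Map3k5 had 6.35 FPKM in EL4 and 0.840 in IVA12.

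**Figure D4:**
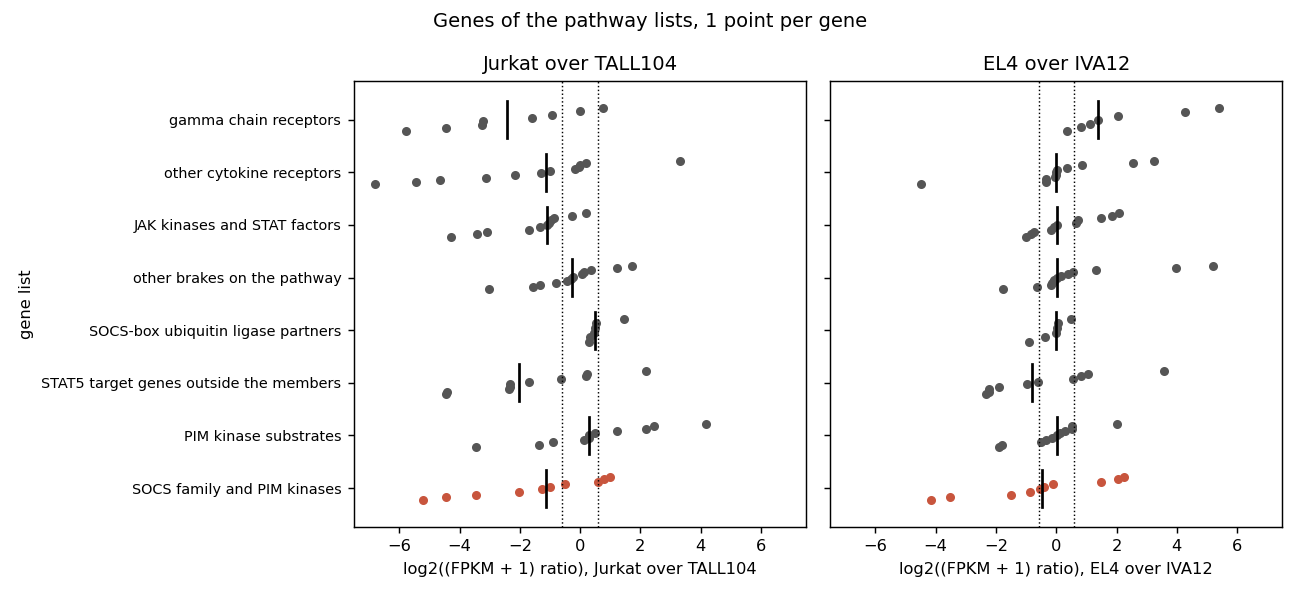
log2((FPKM + 1) ratio) of every gene of the 7 pathway lists (grey points) and of the SOCS family and PIM kinases (red points), for Jurkat over TALL104 (left) and EL4 over IVA12 (right), with black bars at list medians and dotted lines at 1.5-fold. The common gamma-chain receptor list has a median of -2.42 for Jurkat over TALL104 and 1.37 for EL4 over IVA12, and the SOCS-box partners have medians of 0.48 and -0.00, with ELOC at 1.45 and Rnf7 at -0.91.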

How the data were processed

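RNA from 4 cell lines was sequenced by the authors as stranded, paired 101-base messenger RNA libraries. Per the study's methods and processing notes, the authors aligned reads with STAR 2.5.1b to the combined hg19 and mm10 reference of Cell Ranger 1.2.0 and counted genes with featureCounts 1.6.3. The values deposited by the authors are FPKM. Gene lengths, strand setting and the treatment of reads with several alignments are not given in the sources used here.

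Symbols and positions came from GENCODE human release 44 on GRCh37 and mouse release M21. Library totals and reads were recovered from the FPKM, the reads at a relative tolerance of 1e-12. The recovered length equaled the annotated exon length for 5 of the 20 genes, and reads of the other 15 may lack a shared factor, which makes intervals too wide. Ratios were taken on FPKM + 1, with 1.5-fold as threshold, and FPKM ratios have exact conditional 95% intervals. Shares and log2 ratios have delta-method intervals. Detection was set at 1 FPKM. Genes were named by rule: all members, in each list and pair the 2 with the highest absolute log2 ratio, IL2RA, IL2RB, IL2RG, JAK3, STAT5A and STAT5B, the 3 nearest genes of 3 members and overlapping genes. Overlapping genes with no value or a value of 0 were SOCS2-AS1 at SOCS2, Gm17040 and Gm17041 at Cish, and AC118614.1, AC122398.2 and AC122398.3 at Socs6. The members and lists were chosen with earlier results of these data known. Windows shared between genes had the read length. No protein sequence was used here, and mouse promoters were not analysed here. The scripts were tested on simulated data. Alternatives were pseudocounts of 0.1 and 0.01, 3 scalings, a 2-fold threshold and a minimum of 1 FPKM. Python 3.11.15, NumPy 2.4.6, pandas 2.3.3, SciPy 1.17.1 and matplotlib 3.10.9 were used.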

Additional observations from a re-analysis of the deposited data

Results flagged for a closer look

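Members of the other species lay outside the comparisons between lines, and 2 of 40 such values passed the limit that a count of 0 allows, which is 3 reads. Human PIM2 had 8 reads in the IVA12 library, 0.115 FPKM (0.0495 to 0.226) against a limit of 0.0430 FPKM. Mouse Pim1 had 4 reads in the Jurkat library, 0.0436 FPKM (0.0119 to 0.112) against a limit of 0.0327 FPKM, and 3 reads in TALL104. The PIM genes shared 0 exact windows of read length between the species. No library serves as a control for these reads, and their source was not tested.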

How the results depend on the processing

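No member changed direction under the 5 alternatives of pseudocount and scaling, and counts of members past the fold stayed within 1.5 times except at 2-fold, where 0 human members were higher in Jurkat, against 3. The mouse count higher in IVA12 reached 6, against 4, with a pseudocount of 0.1 or 0.01. The median log2 ratio of the human members moved from -1.14 to -1.76 with a pseudocount of 0.1 and to -1.87 with 0.01, and that of the mouse members from -0.48 to -0.68 and -0.81. A smaller pseudocount draws ratios of low genes less toward 0. Of 50 member ratios per pair under these alternatives, 33 human and 37 mouse ratios stayed within their counting interval. Calls that turned were those of SOCS5, SOCS6, Cish and Socs5. Cish passed 1.5-fold toward IVA12 with a pseudocount of 0.1, at -0.71, and of 0.01, at -1.44. No paired analysis was possible because each line has 1 library. Depth limits Cish, Socs3 in EL4 (15 reads) and SOCS1 in Jurkat (11 reads), and how far it limits Socs1 in IVA12 is unknown, since its recovered reads may miss a shared factor.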
